A study of Drosophila melanogaster with 28 samples.

Results

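The cytosolic ribosomal protein (RP) genes encode the proteins of the large and the small subunit of the cytosolic ribosome. They were taken by symbol from the dm6 gene annotation (Ensembl release 115): every nuclear gene whose symbol starts with RpL or RpS, with RpLP0, RpLP1 and RpLP2, and without the mitochondrial mRp genes and genes named -like. The rule gave 87 genes, 50 of the large and 37 of the small subunit, all protein coding, of 13968 nuclear protein-coding genes in the annotation. The 73 mitochondrial ribosomal protein genes served as a second set. A gene was said to have a peak in a list when a peak came within 500 bp of any of its annotated transcript starts.

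The 18 peak lists come from ChIP-seq of SL2 cells, a Drosophila melanogaster cell line. All cells were stably transfected with FLAG-HA-tagged HMR and with Myc-tagged LHR, both under the copper-inducible metallothionein promoter, and were induced with 250 µM CuSO4 for 20 to 24 h. The tagged HMR was either a C-terminal truncation (HMRdC-tg), which lacks the region with the BESS domain through which HMR binds LHR, or the full-length protein (HMRwt-tg). The anti-FLAG antibody precipitates the tagged protein alone, in 5 HMRdC-tg and 5 HMRwt-tg libraries. The anti-HMR antibody precipitates the tagged protein and the endogenous HMR that these cells still have, in 4 HMRdC-tg and 4 HMRwt-tg libraries from the chromatin of 4 of the 5 anti-FLAG libraries of each construct. The cells overexpress HMR, and no list from untransfected cells was analysed here, so a peak shows where HMR was called under induction.

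A list holds the position of each peak and no height, and its depth in reads is unknown. The lists held 465 to 9049 peaks, and the shortest was that of anti-FLAG HMRwt-tg replicate 2. The HMRdC-tg and HMRwt-tg lists therefore differ in length as well as in construct. The lists of one group shared at most 3.58% of their intervals at identical positions, so none was counted as a copy of another. The study calls the anti-FLAG replicates biological replicates, and in the labels each anti-FLAG library of a construct has an input of its own, which the anti-HMR libraries share. The p-values measure the spread between these libraries. FLAG replicate 5 of each construct was made with the NEBNext kit and all other libraries with Microplex.

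Cytosolic RP genes are among the most strongly transcribed genes of a growing cell, and their output is kept in balance across many chromosomal sites. In Drosophila many of them start at a pyrimidine-rich initiator, the TCT motif, and their transcription uses the TBP-related factor Trf2, with DREF and M1BP as sequence-specific factors at parts of the set. HMR and its partner LHR bind the heterochromatin protein HP1a and are best known from pericentromeric heterochromatin and from the lethality of hybrid males.

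The promoters of 9 RP genes that the results turn on are printed first. Each runs from 150 bases before to 20 bases from the start of the reference transcript on, 5′ to 3′ on the strand of the gene, in dm6. Capitals mark TATCGATA (the DNA replication-related element, DRE, which is bound by DREF and contains the CGATA core of BEAF-32), GGTCACAC (the core of motif 1, which is bound by M1BP) or its reverse complement, and TCTTT within 10 bases of the start (the TCT initiator). RpL37-1 and RpS15Aa stand for X-linked members with a DRE, RpL30 for a member with motif 1, and RpL23A for a member in all lists with none of these letters.
RpL37-1, X:15139348-15139517, minus strand: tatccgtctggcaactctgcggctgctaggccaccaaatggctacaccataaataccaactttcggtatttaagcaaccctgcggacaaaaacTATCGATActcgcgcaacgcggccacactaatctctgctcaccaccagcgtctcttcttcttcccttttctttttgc
RpS15Aa, X:13337619-13337788, minus strand: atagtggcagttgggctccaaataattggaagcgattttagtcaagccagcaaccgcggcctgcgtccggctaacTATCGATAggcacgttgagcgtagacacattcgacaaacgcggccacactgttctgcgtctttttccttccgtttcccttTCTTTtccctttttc
RpL30, 2L:19009218-19009387, minus strand: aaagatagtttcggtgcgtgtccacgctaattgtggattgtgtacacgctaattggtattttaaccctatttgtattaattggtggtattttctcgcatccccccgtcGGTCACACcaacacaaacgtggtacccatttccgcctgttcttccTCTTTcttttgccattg
RpL23A, 3L:1668635-1668804, minus strand: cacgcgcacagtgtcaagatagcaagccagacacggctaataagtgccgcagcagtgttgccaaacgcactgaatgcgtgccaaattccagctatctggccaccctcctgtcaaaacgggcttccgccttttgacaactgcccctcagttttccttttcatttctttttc

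RpL21, RpL15 and RpS3A lie in heterochromatin, and RpS3A was called mostly with anti-HMR. RpS5a and RpS5b are paralogs that encode versions of one small subunit protein, RpS5a in most lists and RpS5b in none.
RpL21, 2L:22247814-22247983, minus strand: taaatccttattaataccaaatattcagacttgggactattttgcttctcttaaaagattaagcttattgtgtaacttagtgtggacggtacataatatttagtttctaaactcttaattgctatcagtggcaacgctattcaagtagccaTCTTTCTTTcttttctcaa
RpL15, 3L:27267106-27267275, plus strand: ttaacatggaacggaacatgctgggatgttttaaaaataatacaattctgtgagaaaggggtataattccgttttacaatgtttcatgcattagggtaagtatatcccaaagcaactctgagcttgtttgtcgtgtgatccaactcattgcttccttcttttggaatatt
RpS3A, 4:67188-67357, minus strand: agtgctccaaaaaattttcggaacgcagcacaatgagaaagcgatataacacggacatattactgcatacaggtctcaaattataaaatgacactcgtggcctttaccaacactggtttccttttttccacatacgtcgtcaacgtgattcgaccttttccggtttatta
RpS5a, X:17148245-17148414, minus strand: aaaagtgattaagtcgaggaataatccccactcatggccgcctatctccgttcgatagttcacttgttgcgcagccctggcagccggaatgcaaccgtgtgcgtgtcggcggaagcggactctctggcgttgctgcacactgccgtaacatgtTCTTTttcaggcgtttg
RpS5b, 3R:14901544-14901713, minus strand: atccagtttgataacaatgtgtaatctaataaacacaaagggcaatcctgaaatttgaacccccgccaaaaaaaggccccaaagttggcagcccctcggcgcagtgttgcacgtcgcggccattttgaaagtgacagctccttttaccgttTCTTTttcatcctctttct

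HMR was called at the starts of most RP genes with either antibody. In the anti-FLAG lists of HMRdC-tg replicates 1 to 5, 80.5%, 58.6%, 58.6%, 77.0% and 50.6% of the 87 RP genes had a peak, against 64.4%, 23.0%, 64.4%, 92.0% and 67.8% in HMRwt-tg replicates 1 to 5. In the anti-HMR lists the values were 75.9%, 52.9%, 34.5% and 59.8% in HMRdC-tg replicates 1 to 4, against 67.8%, 34.5%, 85.1% and 51.7% in HMRwt-tg replicates 1 to 4. The range within a construct was wide with both antibodies, and the constructs overlapped. Of all protein-coding genes, 3.44% to 34.3% had a peak in a list, so the RP share was 2.52 to 6.92 times the share of all genes, and above it in 18 of 18 lists. The mitochondrial RP genes, which encode the ribosome of another compartment, stood at 2.74% to 58.9%, below the RP genes in every list and above all protein-coding genes in every list but anti-FLAG HMRwt-tg replicate 2.

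**Figure D1:**
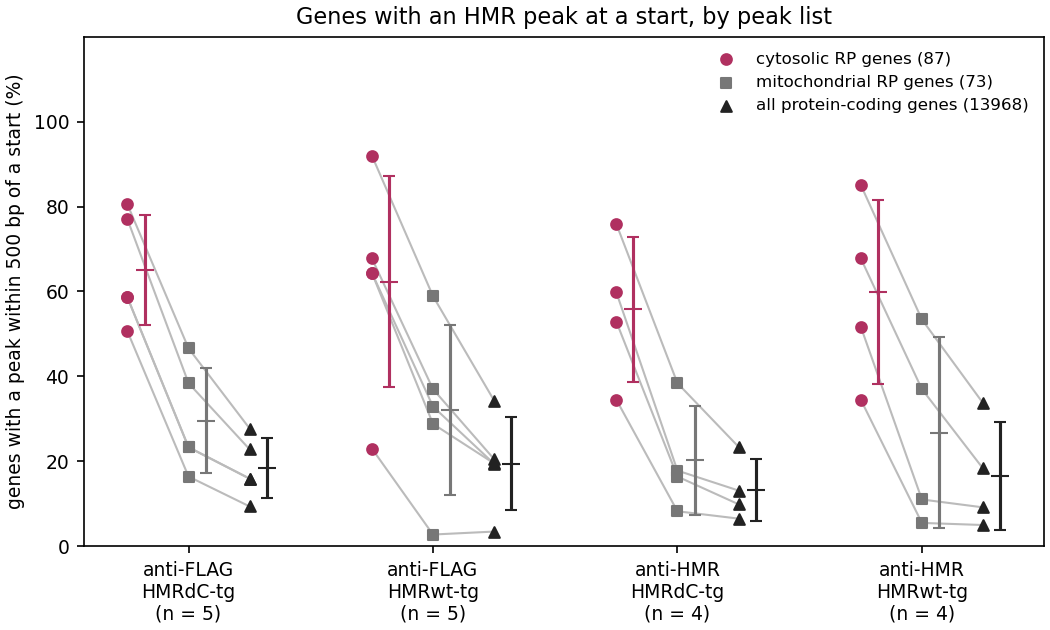
Percentage of genes with a peak within 500 bp of a start in each of 18 lists (points; grey lines join the sets of one list; bars give mean and SD over lists) for cytosolic RP genes, mitochondrial RP genes and all protein-coding genes. The RP points lie at 23.0% to 92.0%, above the point for all protein-coding genes of the same list in every case, and those of HMRdC-tg and HMRwt-tg overlap.

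The peaks at RP starts were a small part of each list. They made up 1.94% to 4.30% of the peaks in the anti-FLAG lists and 0.873% to 3.01% in the anti-HMR lists. The lowest share, 0.873% (95% Wilson interval 0.701% to 1.09%), belonged to the longest list, anti-HMR HMRwt-tg replicate 3 with 9049 peaks, and the highest, 4.30% (2.80% to 6.55%), to the shortest with 465 peaks. These intervals cover counting error only.

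Gene by gene, 59 of 87 RP genes (67.8%) had a peak in at least 5 of the 10 anti-FLAG lists, which is the rule the study used for high confidence peaks. The same held for 19.8% of all protein-coding genes and for 25 of 73 mitochondrial RP genes (34.2%). With anti-HMR, 55 RP genes (63.2%) had a peak in at least 4 of 8 lists, against 13.8% of all protein-coding genes and 21.9% of the mitochondrial RP genes. Of the 50 large subunit genes 35 (70.0%) passed the anti-FLAG rule, as did 24 of 37 small subunit genes (64.9%), and the median RP gene of either subunit was in 13 of 18 lists.

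The spread among the members ran from every list to none. RpL17, RpL23A, RpL26, RpL30, RpL37-1 and the small subunit genes RpS14a and RpS21 had a peak in all 18 lists. These 7 genes are 8.05% of the set, and 0.838% of all protein-coding genes were in all lists. Another 44 RP genes (50.6%) were in 12 to 17 lists, 13 in 6 to 11 and 19 in 1 to 5. RpL10Aa, RpS10a, RpS15Ab and RpS5b had no peak in any list (4.60% of RP genes), whereas 57.0% of all protein-coding genes had none.

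**Figure D2:**
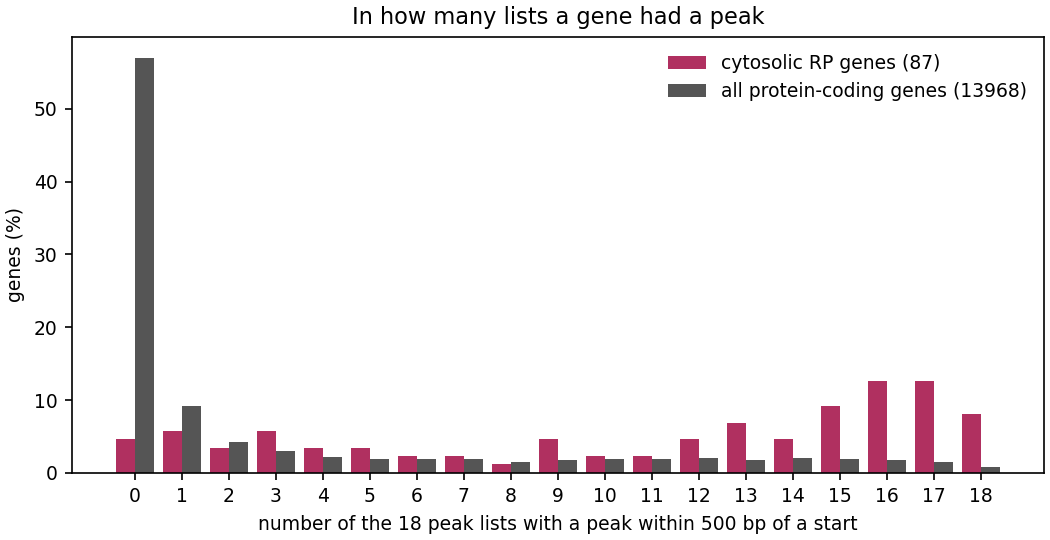
Percentage of genes (y axis) by the number of the 18 peak lists in which they had a peak within 500 bp of a start (x axis), for 87 cytosolic RP genes (left bar of each pair) and 13968 protein-coding genes (right bar). Most RP genes stand at 12 lists and above, whereas 57.0% of all protein-coding genes stand at 0.

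For 12 RP genes, the 7 in all lists and the first 5 in symbol order of the 11 in 17 lists, the place of the peak is described. RpL23A, a large subunit protein, had its 18 peaks between 1668654 and 1668911 on 3L (dm6), with midpoints 99.5 to 158 bp upstream of its start and a median of 126 bp. Those peaks stood at lines 8 to 61 of their lists, a median of 1.03% down the list. The lists are not sorted by position, and what sets the order of their lines is not given in the sources used here, so a line number is a description only. RpL30 has 2 annotated starts, and from the one used for the printed promoter its midpoints lay 102 to 194 bp upstream (median 132 bp), whereas motif 1 begins 42 bases before that start. RpL37-1 had a median midpoint 94.0 bp upstream, and its DRE begins 57 bases before the start. RpS15Aa, one of the other genes in 17 lists, also has 2 starts, and from the printed one its median midpoint lay 84.5 bp upstream and its DRE begins 75 bases upstream. The other midpoints are given from the nearest annotated start. RpL17 had a median of 126 bp upstream, RpL26 of 53.0 bp, RpS21 of 61.0 bp and RpS14a of 264 bp. RpL22, RpL27A, RpL3, RpL7 and RpL7A, all of the large subunit, were each in 17 lists. RpL7 was in 9 of 10 anti-FLAG and 8 of 8 anti-HMR lists, and the other 4 in 10 of 10 and 7 of 8. Among these 5, the median midpoint of RpL7 lay downstream, by 19.5 bp, and that of RpL27A lay 498 bp upstream.

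Over the 83 RP genes with a peak in any list, the median midpoint of a gene lay 77.5 bp upstream of the nearest start (quartiles 128 and 57.0 bp upstream), and 79 of 83 genes (95.2%) had it upstream. Over all 6000 protein-coding genes with a peak it lay 72 bp upstream, with 87.6% upstream. The genes with a peak were chosen by a window around the start, which sets the outer limits of these values. In 514 of 956 RP gene and list pairs the peak covered an annotated start. At the border of the window, 41 pairs from 8 genes had their peak 400 to 500 bp from a start, and 12 pairs from 3 genes had the nearest peak just outside, at 500 to 600 bp. RpS15, a small subunit protein, was the member that sat at that border, with a median midpoint 558 bp upstream.

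**Figure D3:**
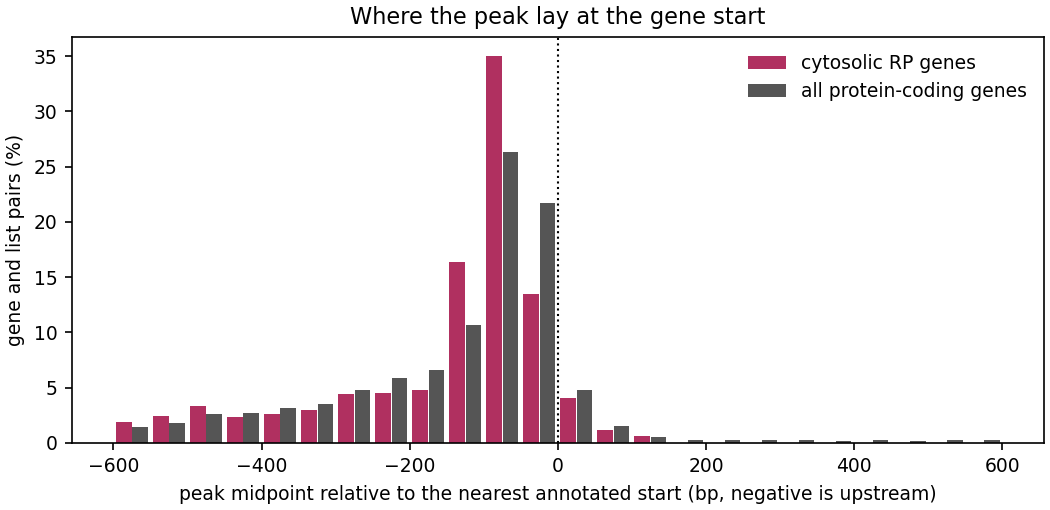
Percentage of gene and list pairs (y axis) by the position of the peak midpoint relative to the nearest annotated start in 50 bp steps (x axis, negative is upstream), for 956 RP pairs (left bar) and 42970 pairs of all protein-coding genes (right bar). The tallest RP bar is that of 50 to 100 bp upstream, with 35.0% of the pairs against 26.3% for all genes.

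The RP count was like in genes with and without a neighbouring start. Of 53 RP genes with no start of another protein-coding gene within 500 bp, 37 (69.8%) passed the anti-FLAG rule, as did 22 of the 34 RP genes with such a neighbour (64.7%). Among all protein-coding genes the order was the other way, with 13.2% without a neighbour and 34.4% with one. Of the 44 RP genes with a single annotated start, 29 (65.9%) passed, against 16.0% of all genes with 1 start.

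By chromosome, 12 of 14 X-linked RP genes (85.7%) passed the anti-FLAG rule, against 23.4% of all X-linked genes. On the other large arms the RP shares were 64.7% on 2L, 68.4% on 2R, 71.4% on 3L and 59.1% on 3R, where all genes stood at 18% to 19.6%. The single RP gene of chromosome 4, RpS3A, did not pass, whereas 32 of all 80 protein-coding genes of that chromosome did (40.0%). With anti-HMR, RpS3A had a peak in 8 of 8 lists.

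The promoter sequences of all members were then searched for the motifs, in a window from 250 bases before to 50 bases from the start of the reference transcript on, on both strands. TATCGATA was found in 26 of 87 RP promoters (29.9%) and in 8.94% of all protein-coding promoters of that length. It stood in 20 of the 59 promoters that passed the anti-FLAG rule (33.9%) and in 6 of the other 28 (21.4%). Read the other way, 20 of 26 RP genes with a DRE (76.9%) passed, as did 39 of 61 without it (63.9%). The median RP gene of both kinds was in 13 lists. Of all protein-coding genes, 36.2% with a DRE passed and 18.2% without it. CGATA, which TATCGATA contains, was in 71.3% of RP promoters and 46.9% of all. GGTCACAC was in 12 RP promoters (13.8%) and in 7.52% of all, and 9 of those 12 passed. TCTTT within 10 bases of the start on the strand of the gene was found in 36 RP promoters (41.4%) and in 2.2% of all, but in like shares of RP promoters that passed (24 of 59, 40.7%) and did not (12 of 28, 42.9%). CACGTG (the E-box, bound by Myc) was in 8 RP promoters (9.20%) and 4.25% of all. GAGAG (bound by the GAGA factor) was in 15 (17.2%) and 30.2%, and TATAAA (the TATA box) in 41 (47.1%) and 45.3%. A match is a run of letters and not a shown binding site.

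The peaks themselves were searched for the same letters. In the anti-FLAG lists 15.0% to 34.0% of the peaks at RP starts (median 26.5%) held TATCGATA, against 8.17% to 14.8% of all peaks of those lists. In the anti-HMR lists it was 16.7% to 27.8% of the peaks at RP starts (median 25.5%), against 2.87% to 9.67% of all peaks. The RP value was above that of all peaks in 10 of 10 anti-FLAG and 8 of 8 anti-HMR lists. All peaks of a list include those away from gene starts, and peaks at the starts of other genes were not searched as a set. Whether RP starts differ in this from gene starts in general was therefore not tested. GGTCACAC was in a median of 10.8% of RP peaks against 13.1% of all peaks in the anti-FLAG lists, with the RP value above in 1 of 10. In the anti-HMR lists the medians were 8.60% of RP peaks and 5.71% of all peaks, with the RP value above in 7 of 8.

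The truncation was then set against the full-length protein. With anti-FLAG the RP share was 65.1% ± 13.0 in HMRdC-tg and 62.3% ± 24.8 in HMRwt-tg (SD, n = 5 lists each), a difference of 2.76 percentage points that is smaller than the spread between lists. Without HMRwt-tg replicate 2, the list of 465 peaks, the difference was -7.07 points, and without HMRwt-tg replicate 4 it was 10.2 points. Without the 2 NEBNext lists it was 7.76 points. With anti-HMR the share was 55.7% ± 17.1 in HMRdC-tg and 59.8% ± 21.7 in HMRwt-tg (SD, n = 4 lists each), a difference of -4.02 points that is also within the spread and that lay at -12.5 points without HMRwt-tg replicate 2 and at 4.41 points without HMRwt-tg replicate 3. All protein-coding genes stood at 18.3% in HMRdC-tg and 19.4% in HMRwt-tg with anti-FLAG, and at 13.2% in HMRdC-tg and 16.5% in HMRwt-tg with anti-HMR.

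No single RP gene was called as different between the constructs. Each gene was tested by Fisher's exact test on the number of lists with a peak, two-sided, with Benjamini-Hochberg adjustment over all 13968 genes. With anti-FLAG, 0 RP genes had an unadjusted p under 0.05, against 0.150% of all genes lower in HMRdC-tg and 0% higher, and with anti-HMR 0 RP genes against 0% of all genes in either direction. The adjusted p was under 0.05 for 0% of genes with either antibody, and likewise in the comparison of antibodies paired by chromatin, and the smallest unadjusted p among RP genes was 0.206 with anti-FLAG and 0.429 with anti-HMR (Fisher's exact test). The smallest p that 5 against 5 lists allow is 0.00794, and that of 4 against 4 is 0.0286, so that adjustment over all genes leaves little room for a call. RpL38 passed an unadjusted p under 0.05 (p = 0.0476, Fisher's exact test, adjusted p = 1.00) once anti-FLAG HMRwt-tg replicate 2 or HMRdC-tg replicate 4 was left out. Of all genes, 123 did without HMRwt-tg replicate 2 and 42 without HMRdC-tg replicate 4, in place of 21, and 22 to 82 without another list. By size alone, RpL38 was the one RP gene in at least 3 anti-FLAG lists fewer in HMRdC-tg (1.15% of RP genes, 0.902% of all genes), and 0 RP genes were in at least 3 more (0.107% of all genes). With anti-HMR 0 RP genes differed by 3 lists, where 0.0143% of all genes were in at least 3 fewer and 0.0286% in at least 3 more.

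The lists differ in length, so the first 465 lines of every list, the length of the shortest, were also compared. The RP share was then 29.9% ± 2.82 in HMRdC-tg (26.4% to 33.3%) and 21.4% ± 1.03 in HMRwt-tg (20.7% to 23.0%; SD, n = 5 anti-FLAG lists each), and the constructs did not overlap. The share of all protein-coding genes was likewise higher in HMRdC-tg, at 3.93% ± 0.0752 against 3.50% ± 0.109 in HMRwt-tg, so that the RP share was 7.61 ± 0.694 times that of all genes in HMRdC-tg and 6.12 ± 0.364 times in HMRwt-tg. With the first 100 lines the RP shares were 7.82% ± 0.962 in HMRdC-tg and 7.36% ± 0.630 in HMRwt-tg and overlapped. They also overlapped at 200 lines (10.3% to 12.6% in HMRdC-tg, 8.05% to 12.6% in HMRwt-tg). At 300 lines they were 13.8% to 19.5% in HMRdC-tg and 13.8% to 16.1% in HMRwt-tg. The first 1000 lines gave 43.7% to 50.6% in HMRdC-tg (n = 5) and 40.2% to 44.8% in HMRwt-tg (n = 4), again with overlap. With anti-HMR the first 465 lines gave 19.8% ± 3.91 in HMRdC-tg and 20.4% ± 5.17 in HMRwt-tg (SD, n = 4 lists each). The anti-FLAG difference at 465 lines rests on the order of the lines, whose meaning is not documented.

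**Figure D4:**
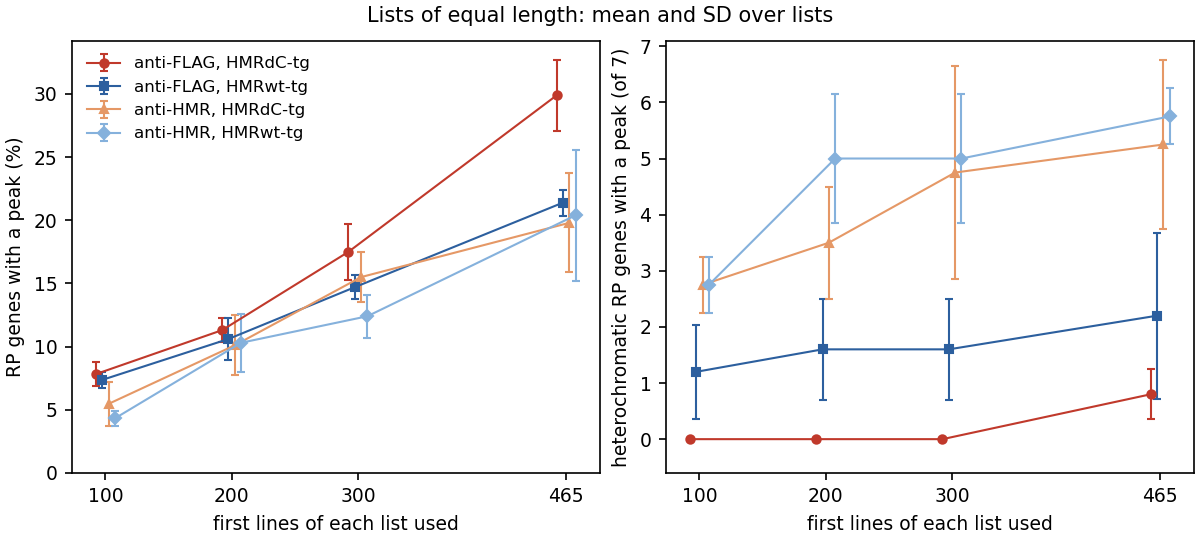
Mean and SD over lists (n = 5 per anti-FLAG group, n = 4 per anti-HMR group) when only the first 100, 200, 300 or 465 lines of every list are used (x axis): left, RP genes with a peak (%), right, heterochromatic RP genes with a peak (of 7). At 465 lines the anti-FLAG RP share is 29.9% in HMRdC-tg and 21.4% in HMRwt-tg, and the heterochromatic RP genes number 0.8 in HMRdC-tg and 2.2 in HMRwt-tg on average. No share of all heterochromatic genes was taken at these cuts, and what sets the order of the lines is not documented.

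In heterochromatin, 7 RP genes were described one by one. RpL5, RpL10, RpL15, RpL21, RpL38 and RpLP0 start within the pericentromeric territories (2L from 21 Mb, 2R up to 5.6 Mb, 3L from 22 Mb) and RpS3A on chromosome 4, and there was none in the territory of 3R (up to 4.1 Mb). They encode large subunit proteins but for RpS3A, a small subunit protein. Of these 7, the anti-HMR lists held 6 in every case, in 4 of 4 HMRdC-tg and 4 of 4 HMRwt-tg lists, and the missing one was always RpLP0. The anti-FLAG lists of HMRdC-tg replicates 1 to 5 held 5, 2, 2, 6 and 1 of them, against 5, 0, 5, 7 and 5 in HMRwt-tg replicates 1 to 5. The HMRdC-tg lists were thus lower in part, and the constructs overlapped. The difference in means was -1.20 genes, less than the SD between lists of 2.40. Without HMRwt-tg replicate 2 it was -2.30 genes with an SD of 1.76. With the first 465 lines of every list it was -1.40 genes with an SD of 1.10, and both exceed the spread. No share of all heterochromatic genes was taken at the cut to 465 lines, and what sets the line order is not documented. Over whole lists the difference shrank to -0.550 genes (SD 2.32) without HMRwt-tg replicate 4. Without the 2 NEBNext lists it was -0.500 genes (SD 2.57). Both of these lie within the spread.

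RpL38 had an anti-FLAG peak in HMRdC-tg replicate 4 alone, against HMRwt-tg replicates 1, 3, 4 and 5, and a peak in all 8 anti-HMR lists (Fisher's exact test on the anti-FLAG lists, p = 0.206, adjusted p = 1.00). RpL10 and RpL21 shared another pattern, with anti-FLAG peaks in HMRdC-tg replicates 1 and 4, against HMRwt-tg replicates 1, 3, 4 and 5, and in all 8 anti-HMR lists. RpL15 and RpL5 were in 4 of 5 anti-FLAG lists of HMRdC-tg and of HMRwt-tg and in all 8 anti-HMR lists. The peaks of RpL15 spanned 27267062 to 27267308 on 3L, with a median midpoint 75.5 bp upstream. They stood at a median of 12.1% down the anti-FLAG lists and 0.394% down the anti-HMR lists. The anti-FLAG median pools constructs that did not overlap. The RpL15 peak stood at lines 353 to 858 of the HMRdC-tg anti-FLAG lists that held it, against lines 38 to 127 in HMRwt-tg. For RpL5 the anti-FLAG lines were 341 to 542 in HMRdC-tg and 59 to 86 in HMRwt-tg. What sets the order of the lines is not documented. RpS3A had an anti-FLAG peak in 0 of 5 HMRdC-tg lists and in HMRwt-tg replicate 4 alone, and an anti-HMR peak in 8 of 8 lists, with a median midpoint 104 bp upstream.

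RpLP0, the stalk protein of the large subunit, went the other way. It had an anti-FLAG peak in HMRdC-tg replicates 1, 2 and 4, against HMRwt-tg replicate 4, and an anti-HMR peak in 0 of 8 lists. Its start at 22075867 on 3L lies close to the border of the territory at 22 Mb, and the start of another gene, CG7130, lies within 500 bp of it. Without RpLP0 the difference in heterochromatic RP genes per anti-FLAG list (HMRdC-tg minus HMRwt-tg) was -1.60 with an SD of 2.12, against -1.20 with it.

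Summed over lists, the 7 heterochromatic RP genes had 45.7% of the possible anti-FLAG peaks in HMRdC-tg and 62.9% in HMRwt-tg, and 85.7% of the anti-HMR peaks in either construct. All 479 protein-coding genes of these regions had 15.1% in HMRdC-tg and 24.8% in HMRwt-tg with anti-FLAG, and 25.7% in HMRdC-tg and 28.6% in HMRwt-tg with anti-HMR. The 80 RP genes elsewhere had 66.8% in HMRdC-tg and 62.3% in HMRwt-tg with anti-FLAG, and 53.1% in HMRdC-tg and 57.5% in HMRwt-tg with anti-HMR. With the first 300 lines of each list, the heterochromatic RP genes in the HMRdC-tg anti-FLAG lists numbered 0 in 5 of 5 lists, against 1.60 ± 0.894 in HMRwt-tg (0 to 2; SD, n = 5 each). RpL15 and RpL5 alone made up the HMRwt-tg count, and HMRwt-tg replicate 2 held 0. No share of all heterochromatic genes was taken at this cut, and what sets the order of the lines is not documented. Since the authors removed reads of low mapping quality, genes next to repeats are seen only through their mappable part.

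**Figure D5:**
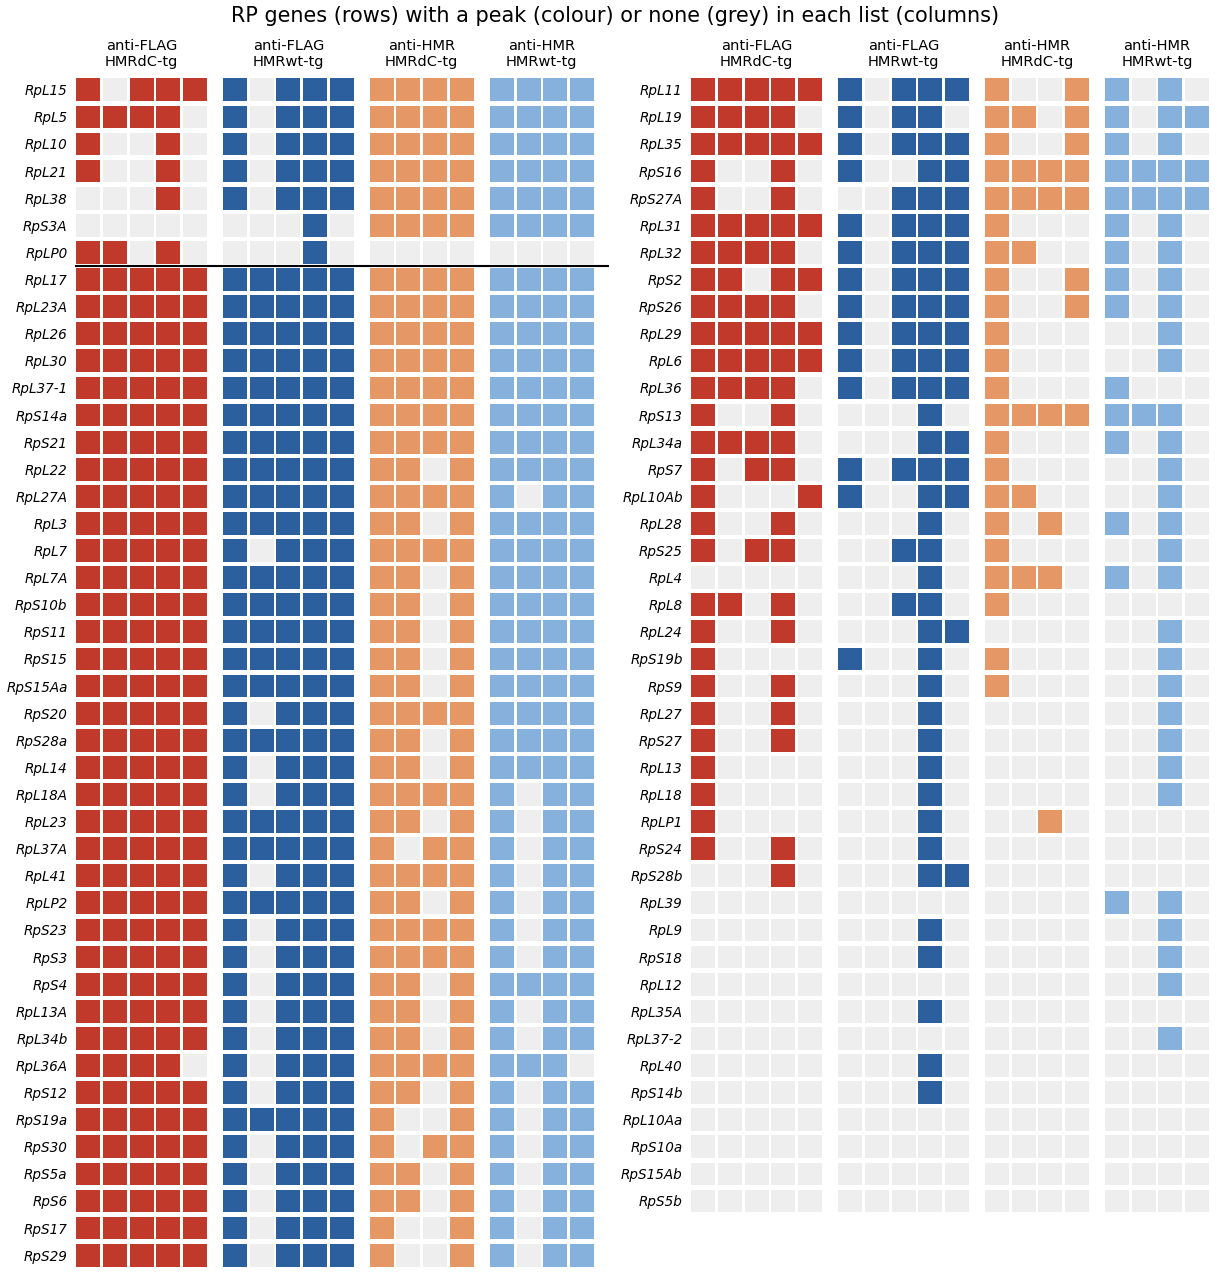
Presence of a peak within 500 bp of a start (colour) or absence (grey) for 86 of the 87 RP genes (rows) in each of 18 lists (columns, replicates in order within a group). The 7 heterochromatic genes stand above the line at the top left, where 6 of 7 rows are filled in all anti-HMR lists and gaps lie in the anti-FLAG lists, and the other genes follow by number of lists.

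Within a chromatin preparation the antibodies were compared over 8 pairs of lists. The anti-FLAG RP share minus the anti-HMR share was 4.60, 5.75, -1.15 and 42.5 percentage points for the chromatin of anti-FLAG replicates 1 to 4 of HMRdC-tg and -3.45, -11.5, 12.6 and 6.90 points for those of HMRwt-tg. The mean was 7.04 ± 16.1 points (SD, n = 8), less than the spread, and 1.97 points without HMRdC-tg replicate 4. In that preparation 41 RP genes were called with anti-FLAG alone and 4 with anti-HMR alone, from lists of 2624 and 1958 peaks. The preparation of HMRwt-tg replicate 2 went the other way, with 5 RP genes called with anti-FLAG alone and 15 with anti-HMR alone, from lists of 465 and 1150 peaks.

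Several RP genes leaned to one antibody. RpS3A was called with anti-FLAG alone in 0 of 8 preparations and with anti-HMR alone in 7. It was among 2 of 87 RP genes (2.30%) of this kind, and 0.866% of all genes were called with anti-HMR alone in at least 5 preparations and never with anti-FLAG alone. The exact two-sided sign test gave p = 0.0156 for RpS3A, with an adjusted p of 1.00 over all genes. The same 2 genes passed p under 0.05 in this direction (0.544% of all genes did), and 0 RP genes did in the other (0.286%). With 1 preparation left out, 1 or 2 RP genes passed, RpS3A among them in each case, and 48 to 84 of all genes in place of 116. The smallest p that 8 pairs allow is 0.00781.

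RpL29, RpL36 and RpL6, of the large subunit, were called with anti-FLAG alone in 5 of 8 preparations and with anti-HMR alone in 0 (3.45% of RP genes, 1.72% of all genes). RpL29 and RpL6 were in 5 of 5 anti-FLAG lists of HMRdC-tg and 4 of 5 of HMRwt-tg, and RpL36 in 4 of 5 of each, whereas all 3 had an anti-HMR peak in 1 of 4 HMRdC-tg and 1 of 4 HMRwt-tg lists. Adding the antibody comparison without the pairing, by Fisher's exact test of 10 anti-FLAG against 8 anti-HMR lists, left 0 RP genes and 9 of all genes at an adjusted p under 0.05, with a smallest adjusted p of 0.131 among RP genes, and 10 of 87 RP genes and 480 of all genes at an unadjusted p under 0.05.

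Paralogs of one RP were compared next. In 9 pairs the annotation holds 2 copies with the same number, and of these RpS5b, RpS10a and RpS19b are known to be expressed mainly in the germline. RpS5a, RpS10b and RpS19a, the copies used widely, were in 15, 17 and 15 of 18 lists, whereas RpS5b and RpS10a were in 0 and RpS19b in 5. RpS15Aa was in 17 lists and RpS15Ab in 0, RpL37-1 in 18 and RpL37-2 in 1, RpS28a in 17 and RpS28b in 3, and RpL10Ab in 8 and RpL10Aa in 0. Expression was not measured in these data, and which copy of these pairs is used more widely was not looked at. The starts of Axn and Mgat2 lie within 500 bp of that of RpS28a. RpL34a and RpL34b were closer, in 9 and 15 lists. RpS14a was in 18 lists and RpS14b in 1, and both are adjacent near-identical copies on X, so reads that fit both places may have been removed and the value for RpS14b is uncertain. The printed promoters of RpS5a and RpS5b both hold TCTTT at the start and no DRE.

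Genes that work with the RPs were read by the same rule. Outside the symbol rule, sta, Rack1 and the genes named -like made a set of 7. Of these, 4 passed the anti-FLAG rule, which 19.8% of all genes pass: sta, Rack1, RpL7-like and RpLP0-like. Whether the -like genes encode components of the ribosome was not looked at. The small subunit gene sta was in 9 of 10 anti-FLAG and 2 of 8 anti-HMR lists, and Rack1 in 9 of 10 and 5 of 8. Of 14 ribosome biogenesis genes 10 passed (71.4%), such as Fib, the fibrillarin that methylates ribosomal RNA, in 9 of 10 anti-FLAG and 7 of 8 anti-HMR lists. Of 54 translation initiation and elongation factor genes 20 passed (37.0%). With anti-HMR at least 4 of 8 lists held 5 of 14 biogenesis genes (35.7%) and 17 of 54 translation factor genes (31.5%), against 13.8% of all genes. Of the factors known from RP promoters or as partners of excess HMR, Trf2 itself had a peak at a start in 10 of 10 anti-FLAG and 2 of 8 anti-HMR lists, whereas Dref was in 2 of 10 and M1BP in 1 of 10 anti-FLAG lists. BEAF-32 was in 5 of 10 anti-FLAG and 1 of 8 anti-HMR lists, gfzf in 4 of 10 and 3 of 8, and Myc in 0 of 18 lists. Some of these genes are not separate from the RP set. The biogenesis gene Mybbp1A has a start within 500 bp of that of RpL36, the translation factor gene eIF1 of RpL28, and Dref of RpL13. A peak there can be counted for both genes of such a pair.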

How the data were processed

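Single-end reads of 50 bp were mapped by the authors to dm6 with bowtie2 2.2.9 and filtered with samtools 1.3.1 at a mapping quality of 2, and peaks were called in each replicate against its input with Homer 4.9 in factor mode (-F 2, size 200). The 3-column lists deposited by the authors give chromosome, start and end, with all peaks 200 bp wide but for 1. They hold no counts, score or signal, and for the 10 inputs no list was used here.

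Presence within 500 bp of a start, measured from the nearest base of a peak, was computed for all genes (Python 3.11.15, numpy 2.4.6, scipy 1.17.1), and positions are printed from 1. Shares over members were given no test. Fisher's and sign tests, run over all genes, were tested on simulated data. Changed genes were absent from all lists of a group and present in all lists of its counterpart. The other genes had the same frequency in every list, so the differing lengths of the lists were not simulated. Antibodies were paired by the input that the labels share.

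Named were the 12 RP genes in the most lists (ties taken in symbol order), those that differed between constructs by 3 lists, those called with one antibody alone in 5 preparations, heterochromatic members and paralogs. Members, lists and rules were chosen with earlier results of these data known. Alternatives were other windows (250 and 1000 bp), peak midpoints, the most upstream start, first lines, stricter and looser rules and each list left out. Those on neighbouring starts and on heterochromatic members were added after the data had been seen. The values of 1 member are not reported here by name.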

Additional observations from a re-analysis of the deposited data

Results flagged for a closer look

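Anti-FLAG HMRwt-tg replicate 2, the list of 465 peaks, stood apart from the other 4 lists of its group in 3 measures of the RP genes by Dixon's criterion, which chance meets in about 1 in 20 groups, and 22 groups of values were looked at. It held 0 heterochromatic RP genes, against 5 to 7 in the other HMRwt-tg lists. Peaks at RP starts made up 4.30% of it, against 1.94% to 2.46%. Its RP share was 6.68 times that of all protein-coding genes, against 2.68 to 3.32 times. This list was the shortest of all, and the part of its length in these values was not tested.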

How the results depend on the processing

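The RP share differed between constructs by less than the spread between lists under every other window, distance rule and choice of start, with each list left out and without the 2 NEBNext lists. Cutting every list to its first 465 lines moved the anti-FLAG difference (HMRdC-tg minus HMRwt-tg) to 8.51 points with an SD of 2.12, and the count of RP genes in at least 5 of 10 anti-FLAG lists to 25, against 3.71% of all genes. The cut itself leaves fewer peaks. Left-out lists gave -7.07 to 10.2 points with anti-FLAG, -12.5 to 4.41 with anti-HMR, 1.97 to 9.69 between antibodies, -2.30 to -0.550 heterochromatic genes per list (past the spread without HMRwt-tg replicate 2), and counts of 53 to 59 in place of 59. At least 8 of 10 lists gave 48 RP genes (12.9% of all genes) and at least 3 of 10 gave 69 (24.8%). RP genes with no neighbouring start gave a difference of 0 points with anti-FLAG. Tests of single genes gave 0 RP genes at an adjusted p under 0.05 under all alternatives run. Between constructs and between paired lists the smallest possible p leaves little room for a call, so the 0 says little about stability. Without the pairing by chromatin (no replicate block), 10 RP genes in place of 2 had an unadjusted p under 0.05. Presence at a fixed caller threshold limits all values, since depth in reads is unknown.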
